A study of Mus musculus with 21 samples.

Results

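Olfactory and vomeronasal receptor genes were followed across 4 deposited lists of regions whose methylated-DNA capture differed between groups of mouse synovial fibroblasts, the connective tissue cells that line joints. Members were all listed regions whose assigned gene name starts with Olfr, Vmn1r, Vmn2r, V1r or V2r. There were 107 such regions among 49307 listed regions, 33 of them in the list for 3 weeks of age, 33 at 8 weeks, 11 at 11 weeks and 30 in the list for TNF exposure. They belonged to 60 genes: 42 Olfr genes with 51 regions and 18 Vmn2r genes, 1 of them the pseudogene Vmn2r-ps11, with 56 regions. No listed region carried a name starting with Vmn1r, V1r or V2r.

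The samples were Tg197 fibroblasts at 3, 8 and 11 weeks of age, WT fibroblasts at 8 weeks with TNF added (whether to the cells or the mice is not stated), and WT fibroblasts at 3, 8 and 11 weeks, with 3 libraries in each of the 7 groups. All came from CBA x C57BL/6J mice and were used at passages 4-5. Tg197 mice carry a human TNF transgene and develop arthritis, and TNF is an inflammatory cytokine. The labels give neither the dose nor the duration of TNF exposure and do not say whether the libraries of a group came from separate animals, so p-values measure the spread between these libraries, which may be technical. The design asks which regions differ between Tg197 and WT cells at each age and between WT cells with and without TNF.

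Odorant receptors are G protein-coupled receptors of olfactory sensory neurons, each of which expresses a single receptor allele. Vmn2r receptors are their counterparts in basal neurons of the vomeronasal organ, where they detect peptide and protein pheromones. Both families lie in tandem arrays that are packed in heterochromatin and silent outside sensory neurons. The capture assay pulls down DNA through a methyl-CpG-binding protein, so its signal depends both on methylation and on how many CpG dinucleotides a fragment holds.

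Receptor genes have few CpGs at their annotated starts. In RefSeq windows of 300 bases (GRCm38.p6, 250 before to 50 after the start), the median was 1 CpG in 948 Olfr windows and 1 in 118 Vmn2r windows, against 8 in 31579 windows of other genes. No CpG was found in 33.3% of Olfr windows and 28.8% of Vmn2r windows, against 4.40% of the windows of other genes. Of the 60 genes with a listed region, 49 had a window, with 0 to 23 CpGs (median 2), and 13 of these windows had none. Vmn2r29 had the window with 23 CpGs and Olfr750 followed with 11. The letters ATG stood at the annotated start in 72.4% of Olfr windows and 86.4% of Vmn2r windows, against 3.00% of the windows of other genes. The same held for 40 of the 49 windows of members. In such models the start is that of the coding sequence, and a distance to the start is measured from there. The Olf/EBF site TCCCNNGGGA, searched on both strands as it is its own reverse complement, was present in 0.527% of Olfr windows, in 0 of 118 Vmn2r windows and in 0.904% of all 32851 windows.

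The windows of 4 odorant receptor genes are shown because a listed region that passed the test reached into them and the length of the gene model was equal in the deposited tables (mm9) and in RefSeq. They show how widely CpG content varies between the windows. Capitals mark CpG dinucleotides, and letters run 5′ to 3′ on the gene's strand. Olfr750 (chr14:51071393-51071692, minus strand) holds 11 CpGs, Olfr281 (chr15:98456062-98456361, plus strand) 6, Olfr645 (chr7:104085029-104085328, minus strand) 3 and Olfr720 (chr14:14176031-14176330, minus strand) 0, all in GRCm38.p6 coordinates.
Olfr750: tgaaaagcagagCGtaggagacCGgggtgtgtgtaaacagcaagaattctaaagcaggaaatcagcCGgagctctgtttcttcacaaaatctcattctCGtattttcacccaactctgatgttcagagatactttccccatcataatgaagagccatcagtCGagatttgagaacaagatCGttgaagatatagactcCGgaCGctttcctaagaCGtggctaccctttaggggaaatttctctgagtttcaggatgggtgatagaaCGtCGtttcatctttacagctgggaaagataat
Olfr281: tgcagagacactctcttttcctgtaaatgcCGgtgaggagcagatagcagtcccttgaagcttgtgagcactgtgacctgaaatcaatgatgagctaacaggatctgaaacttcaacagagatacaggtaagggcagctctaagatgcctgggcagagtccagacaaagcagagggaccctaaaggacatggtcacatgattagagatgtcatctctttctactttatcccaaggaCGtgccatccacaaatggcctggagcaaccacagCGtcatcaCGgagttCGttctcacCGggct
Olfr645: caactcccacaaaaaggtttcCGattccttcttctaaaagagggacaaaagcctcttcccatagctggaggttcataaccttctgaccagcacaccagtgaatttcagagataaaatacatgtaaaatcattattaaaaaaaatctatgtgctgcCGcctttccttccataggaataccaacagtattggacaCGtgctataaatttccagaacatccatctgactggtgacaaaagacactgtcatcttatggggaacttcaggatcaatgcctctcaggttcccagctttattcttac
Olfr720: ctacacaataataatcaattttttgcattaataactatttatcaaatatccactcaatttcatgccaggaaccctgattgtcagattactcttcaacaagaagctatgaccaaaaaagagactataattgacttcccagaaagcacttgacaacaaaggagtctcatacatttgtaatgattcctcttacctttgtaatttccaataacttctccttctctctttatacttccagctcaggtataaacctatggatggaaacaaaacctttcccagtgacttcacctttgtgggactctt
The captured region of Olfr645 began 40.5 bases after the start and shares only the last bases of its window. Those of Olfr750, Olfr281 and Olfr720 ran on to 615.5, 658.5 and 342.5 bases after the start. This is beyond the windows, so their signal need not come from these letters.

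The receptor regions were 500 to 1000 bp long (median 500 bp) and lay on 17 chromosomes. Of the 107, 53 lay within 3 kb of an annotated start, 22 of these within 1 kb, and 54 were classed as gene body. Among the 42 Olfr genes, 39 had models of 919 to 1634 bp (median 951 bp), the length of the single coding exon that is typical of the family. Of the 51 Olfr regions, 24 overlapped the gene model, 17 lay upstream of it and 10 lay past its end, so a region within 3 kb of an odorant receptor start need not be a promoter. Of the 56 Vmn2r regions, 54 overlapped the model and 2 lay upstream.

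Some names cover far more than 1 gene. The model called Vmn2r99 in the deposited tables runs from 18414380 to 19531553 on chromosome 17 of mm9, a length of 1117 kb, while the RefSeq gene of that name measures 32.5 kb. It carried 24 regions and encloses the gene Vmn2r97. A second model of Vmn2r35 measures 212 kb, against 33.7 kb in RefSeq, and carried 5 of the 9 regions of that name. Vmn2r-ps11 measures 212 kb in both. In all, 32 regions stood in models over 100 kb. In the Vmn2r99 model and the second Vmn2r35 model the gene name marks a position within a receptor array rather than an assignment to 1 gene. Receptor arrays hold near-identical copies, and how reads with several equal placements were handled is not given in the labels, so values of single paralogs are uncertain.

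Every listed region holds a window whose deposited p, computed by the authors between the 2 groups, was under 0.0001, so each test here is a retest of selected regions. Over the whole region the authors' deposited table gave an adjusted p of 0.05 or more for 1197 of 13125 regions at 3 weeks, 234 of 11975 at 8 weeks, 110 of 7309 at 11 weeks and 301 of 16898 with TNF. Of the receptor regions this held for 3 at 3 weeks (Olfr281, 1 of Vmn2r99 and 1 of Vmn2r-ps11), 2 at 8 weeks (1 of Vmn2r99 and Vmn2r44), 0 at 11 weeks and 2 with TNF (Olfr335 and Vmn2r62). Reads recovered from the deposited values numbered 2230884 to 2875554 per library over the listed regions at 3 weeks, 695108 to 1143699 at 8 weeks, 385155 to 544797 at 11 weeks and 1285306 to 1858694 in the TNF table. Receptor regions took 1238 to 8177 of them per library. The first and second TNF-treated libraries did not differ in any of the 16898 regions and count as 1, which leaves 2 TNF-treated libraries against 3 untreated WT libraries. Values are the authors' normalized read values, and fold changes are on the log2(value + 1) scale.

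**Figure D1:**
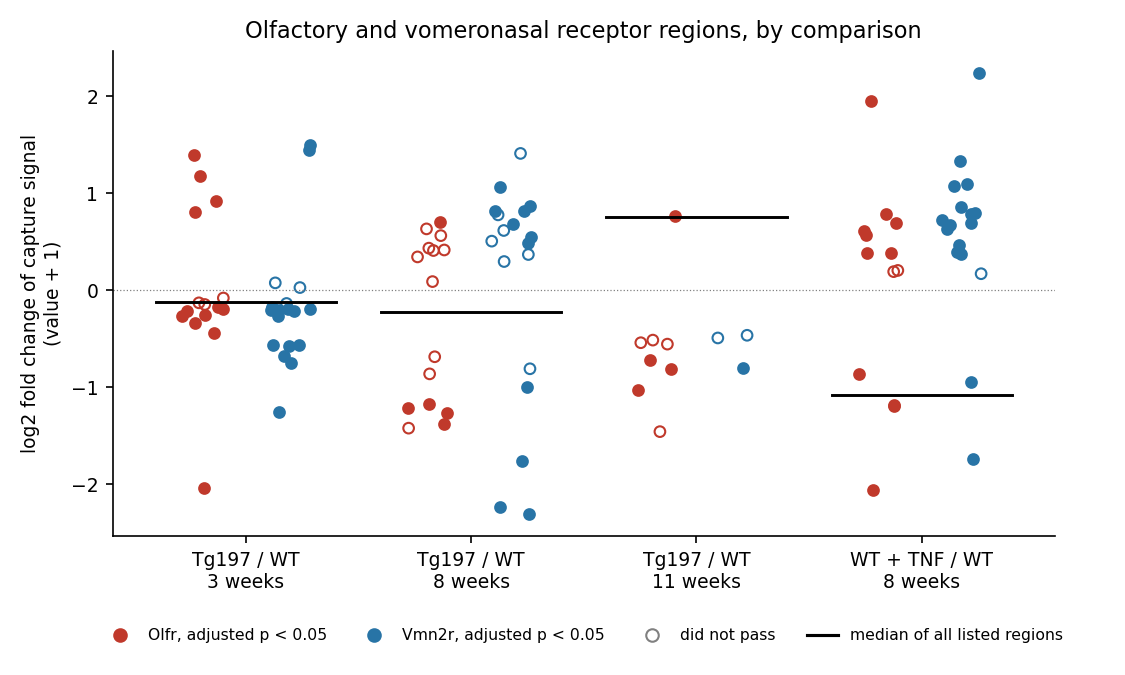
Each point is 1 listed receptor region, placed by its log2 fold change (y axis, value + 1) in 1 of 4 comparisons (x axis), with odorant receptor regions on the left and Vmn2r regions on the right of each. Filled points passed limma with an adjusted p under 0.05, open points did not, and the black line is the median of all listed regions; medians of all regions were -0.12, -0.22, 0.76 and -1.08 from left to right, against -0.20, 0.41, -0.56 and 0.59 for receptor regions.

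At 3 weeks, most receptor regions that passed the test had less captured DNA in Tg197 than in WT fibroblasts. Of 33 regions, 21 were lower and 6 higher with limma (adjusted p under 0.05 over all 13125 regions). Among all listed regions 85.0% passed, 40.3% as higher and 44.7% as lower, so the share that passed is near that of the list. The median log2 fold was -0.20 for receptor regions and -0.12 for all regions. Direction went with the level of a region: of 23 receptor regions with a mean of 100 or more, 17 were lower and 0 higher, and of all 7477 regions at that level, 5134 were lower and 381 higher. Of the 10 receptor regions under 100, 6 were higher and 4 lower, against 4910 higher and 728 lower among all 5648 regions at that level. In 27 of the 33 regions the values of the groups did not overlap, against 86.1% of all listed regions.

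The odorant receptor Olfr769 had the lowest log2 fold. Its region (chr10:128547851-128548500, mm9, past the end of the coding exon) held 4.32, 2.83 and 3.96 in the Tg197 libraries, against 16.9, 17.2 and 20.4 in the WT libraries (log2 fold -2.04, SE 0.34, limma adjusted p = 0.00146). Every Tg197 library lay below every WT library. No other Olfr region at 3 weeks fell by more than 0.44 on the log2 scale.

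The other 7 odorant receptor regions that fell were higher in level and changed less. Olfr214 (chr6:116506601-116507100) held 89.6, 103 and 97.9 in the Tg197 libraries, against 145, 123 and 128 in the WT libraries (log2 fold -0.44). Olfr234 (chr15:98328601-98329100), whose record RefSeq now names Olfr279, held 129, 145 and 155 in the Tg197 libraries, against 196, 174 and 173 in the WT libraries (log2 fold -0.34). Olfr455 held 152, 144 and 140.4 in the Tg197 libraries, against 178, 174 and 173 in the WT libraries (log2 fold -0.26). In each of these 3 regions the libraries of the groups stayed apart by a narrow margin. Olfr1166 held 238, 230.1 and 202 in the Tg197 libraries, against 271, 256 and 274 in the WT libraries (log2 fold -0.26). Olfr750, with 11 CpGs in the window printed above, held 372, 378 and 381 in the Tg197 libraries, against 446, 449.7 and 421 in the WT libraries (log2 fold -0.22, SE 0.06, limma adjusted p = 0.00466). Olfr281, also printed above, held 389.9, 381 and 376 in the Tg197 libraries, against 472, 402 and 442 in the WT libraries (log2 fold -0.20, SE 0.07, limma adjusted p = 0.0167). For both printed starts no Tg197 library reached the lowest WT library. Olfr335, upstream of the gene, had the highest mean of the odorant receptors at 3 weeks and held 523, 482 and 512 in the Tg197 libraries, against 626, 532 and 560.1 in the WT libraries (log2 fold -0.18). Olfr281 did not pass without the first WT library (limma adjusted p = 0.0621), and Olfr335 did not pass without that library (0.127) or without the second Tg197 library (0.136).

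For 17 of the 33 receptor regions at 3 weeks and for 37.2% of all listed regions the deposited p lay more than 10 times below the p of a binomial test, computed exactly on the reads. Olfr214, Olfr234, Olfr455, Olfr1166, Olfr750 and Olfr335 are among them, and Olfr281 is not. Outside such regions 6 of 16 receptor regions were higher and 10 lower, beside 5050 higher and 2784 lower of all 8240. In a fit to those regions alone 14 receptor regions passed, 6 higher and 8 lower, beside 7562 of all.

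The 4 odorant receptor regions that rose in Tg197 cells at 3 weeks lay within 3 kb of a start. Olfr1323, on the X chromosome (chrX:47362251-47363000), held 21.6, 21.7 and 21.8 in the Tg197 libraries, against 4.69, 13.6 and 6.82 in the WT libraries (log2 fold 1.39, SE 0.35, limma adjusted p = 0.00287). Olfr138 (chr17:38409051-38409550) held 25.9, 17.9 and 45.5 in the Tg197 libraries, against 9.39, 13.6 and 12.5 in the WT libraries (log2 fold 1.18, SE 0.33, limma adjusted p = 0.00428). Olfr978 (chr9:39801951-39802500) held 41, 33.9 and 46.5 in the Tg197 libraries, against 16, 24.4 and 22.7 in the WT libraries (log2 fold 0.92, SE 0.25, limma adjusted p = 0.00326). In these 3 regions the WT libraries stayed in a low range that no Tg197 library entered. Olfr138 did not pass without the third Tg197 library (log2 fold 0.83, limma adjusted p = 0.0504). Olfr670 (chr7:112108101-112109000), a class I receptor of the family's array on chromosome 7, held 51.8, 64.1 and 57.4 in the Tg197 libraries, against 31.9, 31.7 and 34.1 in the WT libraries (log2 fold 0.80, SE 0.18, limma adjusted p = 0.0023). At 3 weeks 28 of 29 listed Y regions were lower in Tg197 cells and none higher, and 229 of 535 X regions were higher and 170 lower. The sex of the mice is not given in the labels, and the part of sex in the Olfr1323 value was not tested.

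Among vomeronasal receptors at 3 weeks, 13 of 18 regions were lower and 2 higher. Both gains lay in Vmn2r22, on chromosome 6. The first (chr6:123596901-123597700) held 21.6, 29.2 and 25.7 in the Tg197 libraries, against 3.76, 12.7 and 11.4 in the WT libraries (log2 fold 1.50, SE 0.38, limma adjusted p = 0.00275). The second, within 3 kb of the start, held 24.8, 22.6 and 19.8 in the Tg197 libraries, against 3.76, 10.9 and 10.2 in the WT libraries (log2 fold 1.44, SE 0.36, limma adjusted p = 0.0028). All Tg197 libraries lay above all WT libraries in both regions, which lie side by side and may share fragments.

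The Vmn2r losses at 3 weeks lay mainly in 2 arrays. Vmn2r35, on chromosome 7, had 5 listed regions, and all 5 fell. Its region at chr7:7758101-7758600 held 7.56, 5.66 and 10.9 in the Tg197 libraries, against 22.5, 16.3 and 21.6 in the WT libraries (log2 fold -1.25, SE 0.33, limma adjusted p = 0.00309). At chr7:7753801-7754300 the values were 38.9, 49 and 39.6 in the Tg197 libraries, against 93.9, 84.2 and 46.6 in the WT libraries (log2 fold -0.75, SE 0.22, limma adjusted p = 0.00592), and here 1 WT library came within the Tg197 range. The 3 regions in the long second Vmn2r35 model had log2 folds of -0.57, -0.57 and -0.20. At the first of these (chr7:8838901-8839400) the values were 139, 98.1 and 98.9 in the Tg197 libraries, against 176, 156 and 165 in the WT libraries. At the second (chr7:8653451-8654050) they were 107, 119.8 and 126 in the Tg197 libraries, against 194, 191 and 142 in the WT libraries. Neither showed overlap between the groups. Vmn2r29, in the same array and with the most CpGs at its start of all members, held 159.8, 124 and 139 in the Tg197 libraries, against 314, 167 and 173 in the WT libraries within 1 kb of its start (log2 fold -0.56, SE 0.17, limma adjusted p = 0.00686). The first WT library stood far above the others there.

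On chromosome 17, 3 of 6 regions in the Vmn2r99 model fell at 3 weeks and none rose. The clearest (chr17:18744901-18745400) held 67, 80.1 and 69.2 in the Tg197 libraries, against 125, 102 and 120.4 in the WT libraries (log2 fold -0.68, SE 0.13, limma adjusted p = 0.00162), with no overlap. The other 5 had log2 folds between -0.26 and 0.08. Vmn2r58, Vmn2r56 and both Vmn2r-ps11 regions also fell, with log2 folds between -0.21 and -0.19. Of the 27 regions that passed at 3 weeks, 9 no longer passed without at least 1 library, which were these 4, Olfr138, Olfr281, Olfr335 and 1 region each of Vmn2r35 and Vmn2r99. The same count over all regions was not made. With 1 library left out at a time, 23 to 27 receptor regions passed, beside 10133 to 10848 of all 13125. With all libraries 11153 of all regions had passed.

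**Figure D2:**
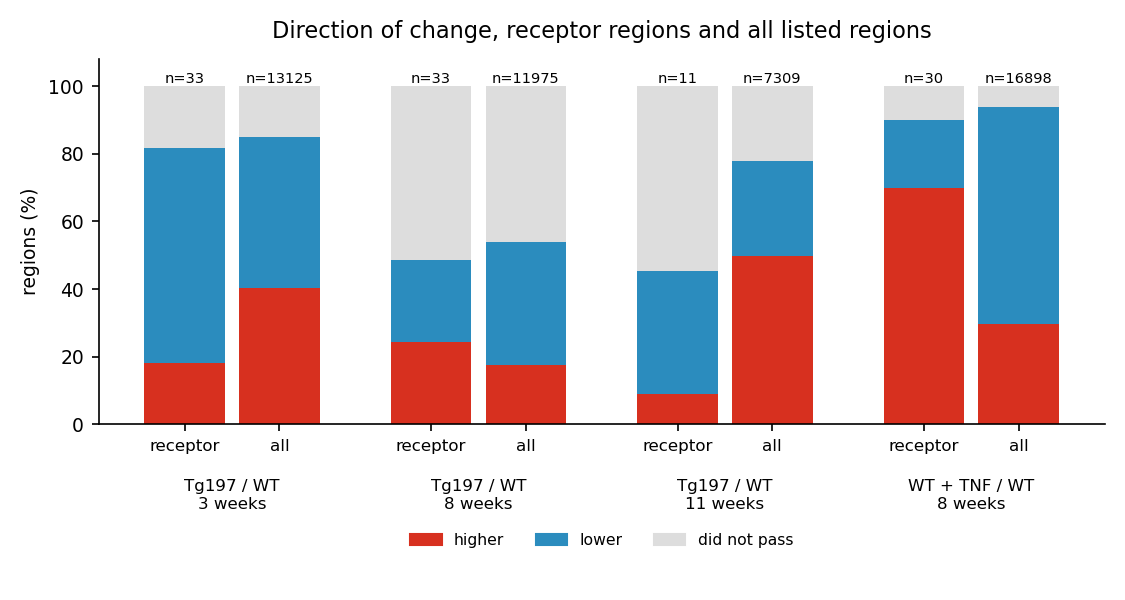
Share of regions (y axis, percent) that were higher, lower or did not pass limma in each comparison, for receptor regions (left bar) and all listed regions (right bar), with the number of regions above each bar. Receptor regions higher and lower numbered 6 and 21 at 3 weeks, 8 and 8 at 8 weeks, 1 and 4 at 11 weeks, and 21 and 6 with TNF.

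At 8 weeks, the receptor regions that passed were split evenly, with Vmn2r regions making up most of the gains and Olfr regions few of them. Of 33 regions, 8 were higher and 8 lower in Tg197 cells, while 54.0% of all 11975 listed regions passed, 17.4% as higher and 36.6% as lower. Of 15 Olfr regions 1 was higher and 4 lower, and of 18 Vmn2r regions 7 were higher and 4 lower; the difference between the families was not tested. The median log2 fold was 0.41 for receptor regions and -0.22 for all regions. Regions with a mean of at least 10, fitted alone, had medians of 0.41 and 0.22. Within 3 kb of a start the medians were 0.19 for receptor regions and 0.49 for all regions, and in gene bodies 0.55 and -1.02. With a mean of 100 or more they were 0.42 and 0.48, and under 100 they were -0.81 and -1.14. All 33 receptor regions were autosomal, and the median of all X regions was 0.61. Of 12 receptor regions with a mean of 100 or more, 2 were higher and 0 lower, as against 467 higher and 160 lower of all 3428. Of 21 receptor regions under 100, 6 were higher and 8 lower, as against 1620 and 4223 of all 8547. Groups did not overlap in 23 of the 33 regions, against 69.6% of all listed regions.

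These calls changed with the libraries and with the pseudocount used. None of the 33 regions, and 0 of all 11975, passed without the first or the third Tg197 library or without the first or second WT library. In that order, 16, 15, 7 and 7 receptor regions had an unadjusted limma p under 0.05 there. Without the second Tg197 library 24 passed (17 higher, 7 lower), beside 8849 of all regions, and without the third WT library 12 passed, beside 5061 of all. None of the 33, and 0 of all regions, passed with a pseudocount of 0.1, where 20 receptor regions had an unadjusted p under 0.05, and 13 passed with limma voom, beside 5871 of all. In the 21 regions with a log2 fold above 0, the first Tg197 library was the highest of its group in 17 and the second the lowest in 17. Over all 5811 listed regions with a log2 fold above 0 these shares were 64.3% and 74.4%.

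The odorant receptor regions that passed as lower at 8 weeks came from 2 arrays, a pair of class I receptor genes on chromosome 7 and a pair on chromosome 11. Olfr545 (chr7:109641601-109642100) held 5.3, 10.4 and 5.88 in the Tg197 libraries, against 17.8, 22.5 and 18.8 in the WT libraries (log2 fold -1.38, SE 0.40, limma adjusted p = 0.0428). Olfr549 (chr7:109703251-109703800), in the same array, held 29.2, 31.8 and 17.6 in the Tg197 libraries, against 59.2, 73.4 and 46.4 in the WT libraries (log2 fold -1.17, SE 0.32, limma adjusted p = 0.0428). On chromosome 11, Olfr324 (chr11:58411951-58412950) held 37.1, 20.8 and 23.5 in the Tg197 libraries, against 75.3, 63.7 and 56.4 in the WT libraries (log2 fold -1.27, SE 0.29, limma adjusted p = 0.0428). The 3 Tg197 libraries lay below the 3 WT libraries in each of these regions. Olfr323 (chr11:58438101-58438650), next to Olfr324, held 21.2, 20.8 and 11.8 in the Tg197 libraries, against 44.8, 53.2 and 29.8 in the WT libraries (log2 fold -1.21, SE 0.37, limma adjusted p = 0.0428). Olfr482 was the odorant receptor that rose (chr7:115237601-115238100), with 99.4, 64.3 and 73.5 in the Tg197 libraries, against 40.6, 47.9 and 55.3 in the WT libraries (log2 fold 0.70, SE 0.24, limma adjusted p = 0.0472). Its groups did not overlap either, though the highest value came from the first Tg197 library.

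Of the Vmn2r regions that fell at 8 weeks, 3 held few reads. Vmn2r35 (chr7:7752601-7753100) held 1.33, 4.15 and 0 in the Tg197 libraries, against 12.7, 11.2 and 7.74 in the WT libraries (log2 fold -2.31, SE 0.67, limma adjusted p = 0.0428). The Vmn2r99 region at chr17:18543051-18543550 held 5.3, 1.38 and 0 in the Tg197 libraries, against 13.5, 11.2 and 7.74 in the WT libraries (log2 fold -2.23, SE 0.72, limma adjusted p = 0.0429). Vmn2r91 (chr17:18258301-18258850), upstream in the same array, held 5.3, 4.15 and 2.94 in the Tg197 libraries, against 17.8, 29.2 and 7.74 in the WT libraries (log2 fold -1.76, SE 0.56, limma adjusted p = 0.0428). No Tg197 library reached a WT value in these 3 regions, at levels where 1 read was worth 0.692 to 1.47 units. The other loss, also in Vmn2r99 (chr17:18522151-18522650), held 21.2, 15.9 and 20.6 in the Tg197 libraries, against 53.3, 40.5 and 27.6 in the WT libraries.

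The Vmn2r gains at 8 weeks were 6 regions of the Vmn2r99 model and 1 of Vmn2r20. Vmn2r20, on chromosome 6 (chr6:123360401-123361000), held 65, 82.3 and 57.4 in the Tg197 libraries, against 41.4, 42 and 30.9 in the WT libraries (log2 fold 0.82, SE 0.25, limma adjusted p = 0.0428). In Vmn2r99, the region at chr17:18995751-18996700 held 58.3, 51.2 and 67.7 in the Tg197 libraries, against 21.1, 30 and 33.2 in the WT libraries (log2 fold 1.06, SE 0.27, limma adjusted p = 0.0428). A second at chr17:19133001-19133500 held 135, 74.7 and 80.9 in the Tg197 libraries, against 44, 47.2 and 63 in the WT libraries (log2 fold 0.87, SE 0.29, limma adjusted p = 0.0438). All 3 had every Tg197 library above every WT library. Another at chr17:19130301-19130850 held 133, 67.1 and 98.5 in the Tg197 libraries, against 50.7, 47.2 and 65.2 in the WT libraries (log2 fold 0.82), and one more at chr17:19462551-19463350 held 129, 96.9 and 118 in the Tg197 libraries, against 57.5, 71.2 and 86.2 in the WT libraries (log2 fold 0.68). The other 2 had log2 folds of 0.49 and 0.55. Between the gains that start at 19130301 and 19133001 lay chr17:19132301-19132900, which was lower in Tg197 cells (log2 fold -0.81) and did not pass (limma adjusted p = 0.0698). The Vmn2r99 region at chr17:19466951-19467450 was higher (log2 fold 0.62) and did not pass either (limma adjusted p = 0.0574). Vmn2r13 had the highest log2 fold of the 33 receptor regions, 1.41, and did not pass: its values were 186, 163 and 194 in the Tg197 libraries, against 29.6, 56.2 and 181 in the WT libraries, and the third WT library lay inside the Tg197 range (limma adjusted p = 0.0676).

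**Figure D3:**
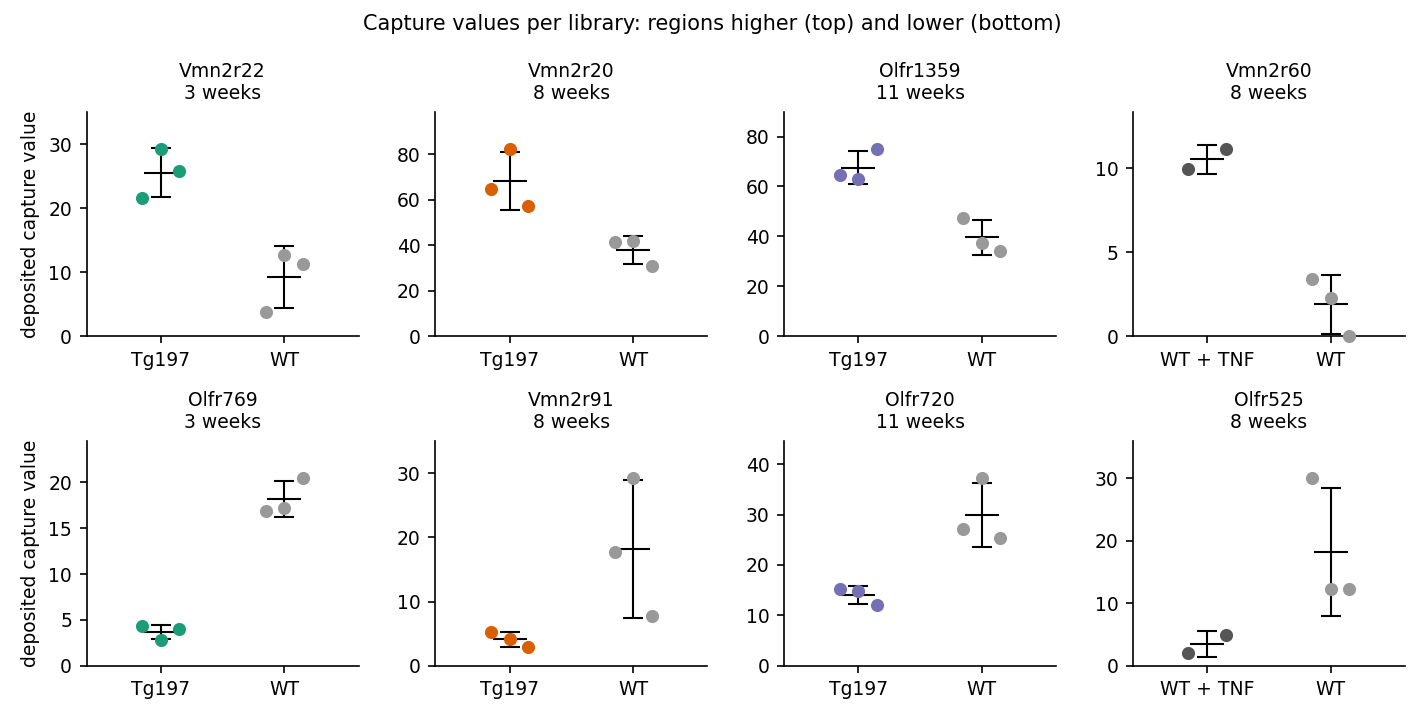
Deposited normalized values (y axis) of the single libraries for 8 receptor regions, 1 higher (top row) and 1 lower (bottom row) per comparison; points are libraries, bars the mean and SD (n = 3, or 2 for TNF-treated). Tg197 or TNF-treated libraries stand left of WT libraries, and in all 8 regions the groups do not overlap; the 2 TNF-treated points stand for 3 deposited columns, 2 of which were identical.

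At 11 weeks, few receptor regions were listed and few of those passed. Of 11 regions, 4 were lower and 1 higher in Tg197 cells, while 77.9% of all 7309 listed regions passed, 49.7% as higher and 28.2% as lower. The median log2 fold was -0.56 for receptor regions, against 0.76 for all regions. Of 7 receptor regions with a mean of 100 or more 2 were lower and 0 higher, and of all 1481 such regions 442 were lower and 53 higher. Of the 4 receptor regions under 100, 2 were lower and 1 higher, and of all 5828 such regions 1619 were lower and 3580 higher. The values of the groups stayed apart in 9 of the 11 regions, against 83.7% of all regions. None of the 11 passed without the first or the third Tg197 library or the second WT library, where 10, 0 and 0 of all 7309 regions passed. Without the second Tg197 or the first WT library 3 passed each, beside 4818 and 5015 of all, and without the third WT library 8, beside 5511 of all.

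Olfr720 (chr14:15008251-15008750), whose window is printed above without a CpG, held 15.2, 14.9 and 12.1 in the Tg197 libraries, against 27.2, 37.2 and 25.3 in the WT libraries (log2 fold -1.03, SE 0.30, limma adjusted p = 0.0219). Olfr1055 (chr2:86186901-86187400) held 28.7, 30.9 and 24.1 in the Tg197 libraries, against 80.2, 39.1 and 39 in the WT libraries (log2 fold -0.82, SE 0.32, limma adjusted p = 0.0412). Olfr27 (chr9:38944551-38945400), inside a 16.9 kb model, held 129, 116 and 100.0 in the Tg197 libraries, against 224, 219 and 138 in the WT libraries (log2 fold -0.72, SE 0.25, limma adjusted p = 0.0273). No Tg197 library reached the WT range in these regions. In the 10 receptor regions with a log2 fold below 0, the first WT library was the highest of its group in 8, as it was in 71.8% of all 3351 such regions. A Vmn2r99 region (chr17:19131151-19131700) held 75, 89.3 and 69 in the Tg197 libraries, against 203, 133 and 92.6 in the WT libraries (log2 fold -0.80, SE 0.29, limma adjusted p = 0.0323). Olfr1359 (chr13:21766301-21766900), on chromosome 13 close to its start, rose alone and held 64.6, 63 and 75 in the Tg197 libraries, against 47.6, 37.2 and 34.1 in the WT libraries (log2 fold 0.76, SE 0.23, limma adjusted p = 0.0219). With each library centred on its median ratio, 8 receptor regions were lower and 0 higher, while 5554 of all 7309 regions passed. The median of all regions moved to 0.49 and that of receptor regions to -0.83.

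In WT fibroblasts exposed to TNF, most receptor regions that passed had more captured DNA than in untreated WT cells, while most regions of the list had less. Of 30 receptor regions 21 were higher and 6 lower, while 93.8% of all 16898 listed regions passed, 29.8% as higher and 64.1% as lower. The median log2 fold was 0.59 for receptor regions and -1.08 for all regions. All 30 receptor regions were autosomal. Of all 603 listed X regions 440 were also higher and 116 lower, with a median log2 fold of 0.59. Among regions with a mean of 100 or more, 7 of 10 receptor regions were higher and 0 lower, and 2014 of all 3098 were higher and 312 lower. Under 100, 14 of 20 receptor regions were higher and 6 lower, and 3014 of all 13800 were higher and 10515 lower. Values of the groups stayed apart in 29 of the 30 regions, against 95.8% of all regions.

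Of 17 Vmn2r regions 14 were higher and 2 lower with TNF, and of 13 Olfr regions 7 were higher and 4 lower; the difference between the families was not tested. Of all regions classed as gene body, where most Vmn2r regions lay, 1674 of 8275 were higher and 6077 lower. Within 3 kb of a start 7 of 14 receptor regions were higher and 4 lower, beside 261 higher and 697 lower of all 1009. With either of the 2 distinct TNF-treated libraries left out, 1 TNF-treated library remained, which was assumed to vary like the WT libraries. Then 14 receptor regions passed without the first and 13 without the third, beside 10967 and 11966 of all 16898. Without the second WT library 17 passed, beside 12764 of all. Of the 27 receptor regions that passed with all libraries, 23 no longer passed without at least 1 of them. How many of all listed regions did so was not counted. Median centring moved the median of all regions to -0.27 and that of receptor regions to 1.43. It left 24 receptor regions higher and 1 lower, while 7524 of all 16898 regions passed.

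The Vmn2r gains with TNF with the largest log2 folds lay in regions of low level. Vmn2r60, on chromosome 7 (chr7:49428101-49428600), held 9.95 and 11.2 in the TNF-treated libraries, against 3.42, 2.29 and 0 in the untreated WT libraries (log2 fold 2.24, SE 0.70, limma adjusted p = 0.0133). The Vmn2r99 region at chr17:18855101-18855600 held 15.9 and 11.2 in the TNF-treated libraries, against 6.85, 2.29 and 6.14 in the untreated WT libraries (log2 fold 1.33, SE 0.54, limma adjusted p = 0.0359). Vmn2r76 (chr7:93385451-93385950) held 24.9 and 21.1 in the TNF-treated libraries, against 14.6, 8.38 and 8.6 in the untreated WT libraries (log2 fold 1.10, SE 0.40, limma adjusted p = 0.0244). In all 3 both TNF-treated values were above every untreated value. Vmn2r97 (chr17:19067951-19068450), enclosed by the Vmn2r99 model, held 23.9 and 29.8 in the TNF-treated libraries, against 11.1, 12.9 and 12.3 in the untreated WT libraries (log2 fold 1.08, SE 0.35, limma adjusted p = 0.015). Vmn2r35 (chr7:8807001-8807500) held 91.6 and 184 in the TNF-treated libraries, against 62.5, 69.3 and 83.5 in the untreated WT libraries (log2 fold 0.85). The other 9 Vmn2r gains, in Vmn2r22, Vmn2r35, Vmn2r58, Vmn2r62, Vmn2r99 and Vmn2r103, had log2 folds from 0.37 to 0.80. Of these, Vmn2r22 (chr6:123585101-123585700) held 102 and 99.2 in the TNF-treated libraries, against 39.4, 62.5 and 76.2 in the untreated WT libraries, in another stretch of the gene than its gains at 3 weeks.

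Olfr370, on chromosome 8, had the largest log2 fold of the odorant receptors with TNF. Its region (chr8:86066201-86067050) held 13.9 and 17.4 in the TNF-treated libraries, against 0.86, 6.09 and 4.91 in the untreated WT libraries (log2 fold 1.96, SE 0.63, limma adjusted p = 0.0153). Olfr194 (chr16:59122051-59122800) held 87.6 and 129 in the TNF-treated libraries, against 53.9, 68.6 and 62.7 in the untreated WT libraries (log2 fold 0.78, SE 0.21, limma adjusted p = 0.0109). Olfr165 (chr16:19410451-19411250) held 81.6 and 75.6 in the TNF-treated libraries, against 38.5, 54.8 and 52.8 in the untreated WT libraries (log2 fold 0.69, SE 0.21, limma adjusted p = 0.0124). All TNF-treated values were above the untreated ones in the 3 regions. Olfr691, a class I receptor on chromosome 7, held 121 and 195 in the TNF-treated libraries, against 95.9, 97.5 and 109 in the untreated WT libraries (log2 fold 0.61). Olfr1270 held 74.7 and 55.8 in the TNF-treated libraries, against 41.1, 38.9 and 50.4 in the untreated WT libraries (log2 fold 0.57). Olfr761 held 255 and 245 in the TNF-treated libraries, against 202, 176 and 198 in the untreated WT libraries (log2 fold 0.38). The groups stayed apart in these as well, by a few units in Olfr1270. Olfr335 had the highest level of any receptor region in the table and held 1061 and 1376 in the TNF-treated libraries, against 910.1, 855 and 1031 in the untreated WT libraries (log2 fold 0.38, SE 0.12, limma adjusted p = 0.0143). Over this whole region the adjusted p deposited by the authors was 0.880. Without the third TNF-treated library the log2 fold was 0.19.

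With TNF 6 receptor regions fell, 4 of them in odorant receptors. Olfr525, near the end of chromosome 7 (chr7:147508901-147509500), held 1.99 and 4.96 in the TNF-treated libraries, against 30, 12.2 and 12.3 in the untreated WT libraries (log2 fold -2.06, SE 0.55, limma adjusted p = 0.0109). Olfr272 (chr4:52925801-52926300) held 11.9 and 9.92 in the TNF-treated libraries, against 30.8, 28.2 and 20.9 in the untreated WT libraries (log2 fold -1.20, SE 0.35, limma adjusted p = 0.0111). Olfr645 (chr7:111232901-111233550), whose start is printed above, held 10.9 and 11.2 in the TNF-treated libraries, against 39.4, 28.9 and 16 in the untreated WT libraries (log2 fold -1.18, SE 0.41, limma adjusted p = 0.0195). Both TNF-treated values lay below all 3 untreated values in each. Olfr452 (chr6:42741051-42741550) held 15.9 and 23.6 in the TNF-treated libraries, against 37.7, 36.6 and 34.4 in the untreated WT libraries (log2 fold -0.87). Vmn2r99 fell at chr17:18543051-18543600, with 1.99 and 3.72 in the TNF-treated libraries, against 13.7, 11.4 and 9.83 in the untreated WT libraries (log2 fold -1.74, SE 0.49, limma adjusted p = 0.0109), and at chr17:19462001-19462500, with 12.9 and 22.3 in the TNF-treated libraries, against 33.4, 40.4 and 28.3 in the untreated WT libraries (log2 fold -0.94, SE 0.33, limma adjusted p = 0.0196).

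The receptor regions of all 4 lists fell into 32 clusters, taking regions up to 1 Mb apart as 1 cluster. Of these, 5 held 5 or more regions and 56 regions in all, and 13 held a single region. The largest lay on chromosome 17 (chr17:18258301-19928350, mm9), with 27 regions named Vmn2r91, Vmn2r97, Vmn2r99 or Vmn2r103. No region of another name was listed inside it. The Vmn2r99 model of 1117 kb covers much of this span, so the lack of other names there comes largely from the annotation. Its 6 regions at 3 weeks had a median log2 fold of -0.16 (0 higher, 3 lower), its 11 regions at 8 weeks 0.55 (6 higher, 3 lower), its 1 region at 11 weeks -0.80, and its 9 regions with TNF 0.63 (7 higher, 2 lower). Summed over the 9 regions of the TNF table, its value was 639 and 637 in the TNF-treated libraries, against 470.1, 446 and 467 in the untreated WT libraries. Over the 11 regions at 8 weeks the sum was 1151, 820.0 and 902 in the Tg197 libraries, against 706, 703 and 714 in the WT libraries. The WT sums lay close together there, while the first Tg197 library stood above the other 2. The 8-week and TNF tables share their WT libraries, so their values are given side by side and are not independent of each other.

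**Figure D4:**
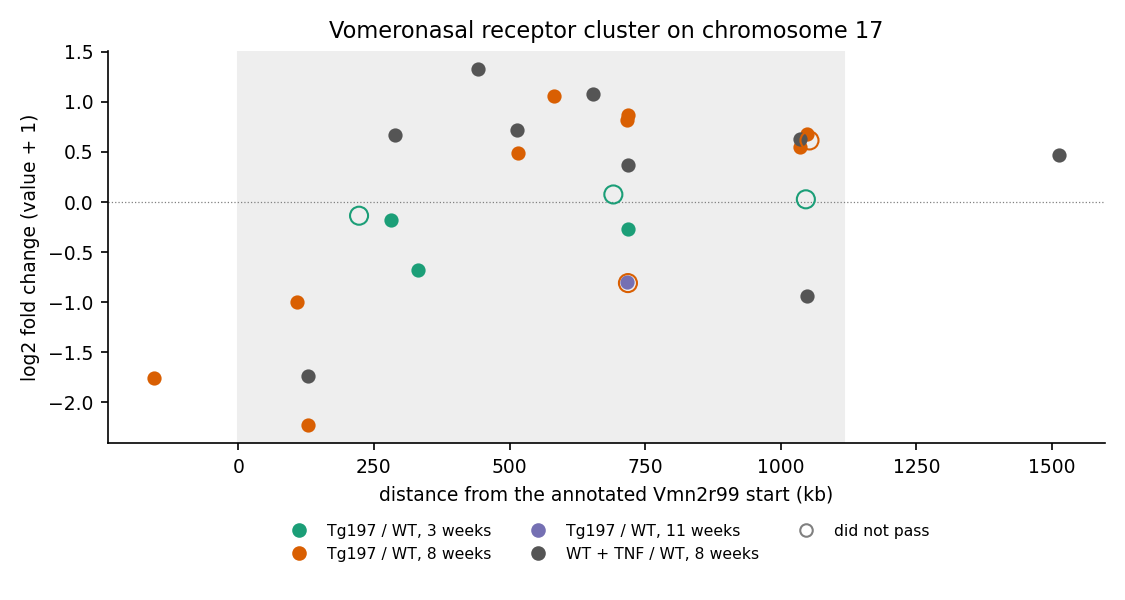
Regions of the vomeronasal receptor cluster on chromosome 17, by distance of the region's centre from the annotated Vmn2r99 start (x axis, kb) and log2 fold change (y axis, value + 1), coloured by comparison; filled points passed limma, open points did not, and the grey band is the Vmn2r99 model of 1117 kb. The lowest points, at a log2 fold of -2.23 at 8 weeks and -1.74 with TNF, lie near 129 kb, and 12 of the 13 gains lie between 289 kb and 1049 kb. The 9 losses run from -156 kb to 1048 kb and so share that stretch.

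The second cluster lay on chromosome 7 (chr7:7230151-9742500) and held 12 regions of Vmn2r29, Vmn2r35 and Vmn2r44. All 6 regions listed at 3 weeks fell, with a median log2 fold of -0.57, and so did the 6 regions of other genes inside its span. Summed over the 6 receptor regions, the value at 3 weeks was 698, 612 and 630.0 in the Tg197 libraries, against 1065, 872 and 799 in the WT libraries. With TNF, 2 of 3 regions there rose and none fell, and 4 of 6 regions of other genes rose.

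The 3 smaller clusters held 5 to 7 listed regions each. On chromosome 10 (chr10:128547851-129924450) 7 regions of Olfr247, Olfr769, Olfr773, Olfr784, Olfr819 and Vmn2r87 were listed, and Olfr769 at 3 weeks was the single one that passed. On chromosome 11 (chr11:58411951-59427250) 5 regions of Olfr225, Olfr315, Olfr323 and Olfr324 were listed, of which 2 fell at 8 weeks, where 17 of 24 regions of other genes inside the span also fell. The class I array on chromosome 7 (chr7:111070501-112486100) had 5 regions, with Olfr670 higher at 3 weeks, Olfr691 higher with TNF, Olfr645 lower with TNF, and the others not past the threshold.

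Of the 60 genes, 46 appeared in 1 list, 11 in 2, 1 in 3 (Olfr335) and 2 in all 4 (Vmn2r35 and Vmn2r99). At the level of regions there were 17 overlapping pairs between lists, 12 of them sharing at least 50% of the shorter region, and they involved 29 regions of 11 genes. Olfr138 was listed at 3 and 8 weeks with opposite folds over the same 500 bases. Its values at 3 weeks are given above, and at 8 weeks they were 30.5, 14.5 and 8.83 in the Tg197 libraries, against 102, 80.9 and 9.95 in the WT libraries (log2 fold -1.42, limma adjusted p = 0.171). The third WT library lay inside the Tg197 range at 8 weeks. Vmn2r58 was lower at 3 weeks, with 406, 351 and 385 in the Tg197 libraries, against 442, 424 and 458 in the WT libraries, and higher with TNF, with 159 and 255 in the TNF-treated libraries, against 98.5, 124 and 129 in the untreated WT libraries (log2 fold 0.79, SE 0.20, limma adjusted p = 0.0109).

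Further regions were shared between lists. Olfr335 had log2 folds of -0.18 at 3 weeks, 0.41 at 8 weeks (not past the threshold) and 0.38 with TNF. Olfr750 had -0.22 at 3 weeks and 0.19 with TNF, where its groups overlapped and it did not pass. Olfr324 had -1.27 at 8 weeks and -1.46 at 11 weeks, where the first Tg197 library stood at 4.79 and the other 2 at 45.8 and 51.7, and it did not pass (limma adjusted p = 0.0802). The low-level Vmn2r99 region near 129 kb had -2.23 at 8 weeks in Tg197 cells and -1.74 with TNF, against the same WT libraries. The Vmn2r99 region at chr17:19132301-19132900 had -0.81 at 8 weeks, not past the threshold. The TNF region that shares 60% of the shorter of the 2 (chr17:19132601-19133100) had 0.37 and passed.

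Genes of the olfactory pathway were counted from lists of signal transduction, receptor transport, vomeronasal transduction and receptor choice. Beside these counts, 40.3% of all listed regions were higher and 44.7% lower at 3 weeks, 17.4% and 36.6% at 8 weeks, 49.7% and 28.2% at 11 weeks, and 29.8% and 64.1% with TNF. Signal transduction genes had 3 of 11 regions higher and 7 lower at 3 weeks, 5 of 8 higher and 0 lower at 8 weeks, 3 of 4 higher and 1 lower at 11 weeks, and 3 of 11 higher and 7 lower with TNF. The 8 regions at 8 weeks came from only 2 of the 17 gene names of that list. At 3 weeks, at 11 weeks and with TNF they came from 7, 4 and 8 genes. Cnga4, a modulatory subunit of the olfactory cyclic nucleotide-gated channel, held 382, 355 and 402 in the Tg197 libraries, against 469.5, 452 and 420.3 in the WT libraries at 3 weeks (log2 fold -0.24). Ano2, the calcium-activated chloride channel of the olfactory cilium, held 27.9, 27.5 and 43.1 in the Tg197 libraries, against 16.3, 13 and 11.7 in the WT libraries at 11 weeks (log2 fold 1.19). The groups were apart in both. Another Cnga4 region at 3 weeks, with a log2 fold of -0.12, did not pass (limma adjusted p = 0.129), and its groups overlapped. For both Cnga4 regions the deposited p lay more than 10 times below that of the binomial test.

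Receptor transport genes had no listed region at 3 or 11 weeks, 1 at 8 weeks that did not pass, and 3 with TNF, of which 2 fell. Both losses were in Reep1, at log2 folds of -0.59 and -1.21. Vomeronasal transduction genes had 2 of 4 regions higher and 1 lower at 3 weeks, 0 of 2 higher and 1 lower at 8 weeks, 0 of 1 passing at 11 weeks, and 1 of 3 higher and 2 lower with TNF. Trpc2, the channel of vomeronasal neurons, held 5.3, 5.54 and 2.94 in the Tg197 libraries, against 15.2, 16.5 and 12.2 in the WT libraries at 8 weeks (log2 fold -1.51). All 3 Tg197 libraries lay below the WT libraries. Gnao1, the G protein alpha subunit coupled to Vmn2r receptors, held 48.6, 51.9 and 65.3 in the Tg197 libraries, against 35.7, 25.3 and 26.1 in the WT libraries at 3 weeks (log2 fold 0.91). Another Gnao1 region, in the TNF table, held 10.9 and 8.68 in the TNF-treated libraries, against 24.8, 26.7 and 29.5 in the untreated WT libraries (log2 fold -1.38). Both regions passed, in opposite directions.

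Genes of receptor choice, which are transcription and chromatin factors used by many tissues, had 9 of 16 regions higher and 7 lower at 3 weeks, 2 of 19 higher and 8 lower at 8 weeks, 4 of 12 higher and 6 lower at 11 weeks, and 6 of 18 higher and 12 lower with TNF. Ebf2, a factor of the Olf/EBF family, held 20.7, 11.4 and 17.2 in the Tg197 libraries, against 5.44, 1.86 and 0 in the WT libraries at 11 weeks (log2 fold 2.69). Ebf4, of the same family, had a region in the TNF table with 3.98 and 4.96 in the TNF-treated libraries, against 21.4, 29.7 and 20.9 in the untreated WT libraries (log2 fold -2.18). The groups did not overlap in either region.

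Other gene families in tandem arrays had 7 of 22 regions higher and 13 lower at 3 weeks, 5 of 36 higher and 11 lower at 8 weeks, 10 of 39 higher and 22 lower at 11 weeks, and 15 of 44 higher and 26 lower with TNF, at a median log2 fold of -1.01 in the last. Other chemosensory families had 1 of 5 regions higher and 3 lower at 3 weeks, 2 of 3 higher and 0 lower at 8 weeks, 1 of 2 higher and 1 lower at 11 weeks, and 3 of 3 higher with TNF. Listed regions at marker genes were few: over the 4 lists together, 4 regions at synovial fibroblast markers, 5 at macrophage and osteoclast markers, 9 at lymphocyte markers, 7 at endothelial markers and 5 at olfactory neuron markers. The assay does not measure expression, so the cell type of the cultures could not be checked against these markers, and their part in the receptor results was not tested.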

How the data were processed

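Per the labels' protocols, DNA of synovial fibroblasts was sonicated to about 250 bp, methylated fragments were captured on a methyl-CpG-binding protein, and low and high salt eluates were pooled and sequenced. The submitters' processing notes name the build mm9 and BWA, Cuffdiff, Cufflinks, TopHat and TopHat2 without saying which did what. What called the regions, with which filters, and how reads with several placements were treated, is not given in the sources used here.

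Each deposited table lists regions that hold a window with a p under 0.0001 between 2 groups, per the file headers and the values. The deposited signal of a group is, per the file headers, the authors' mean normalized read value, with the single libraries packed in the same row. The authors' log2 fold change, p-value and adjusted p-value were also deposited and were not used as results; the p-value served for the check against counting error. Whole multiples of 1 step per library gave back whole reads within 0.1 for 100% of values. Even numbers made up 57.0% to 68.4% of the read numbers of at most 20, so reads may not be independent molecules, and counting checks cover counting error only. Depth outside the listed regions is unknown.

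limma 3.58.1 in R 4.3.3 was fitted with a mean trend to log2(value + 1) of all regions of a table, with Benjamini-Hochberg adjustment over the table and a threshold of 0.05, without a filter on low values. The script was tested on simulated data. Tables were normalized separately, so tests stayed within a table. Identical TNF-treated libraries were counted once. Libraries are named by their position in the packed cells, which carries no replicate number. All value columns could be assigned to a group, and 0 were left out. Gene names matched RefSeq (GRCm38.p6) for 59 of 60 genes, and no coordinates were converted between builds.

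Regions named with all library values were those past the threshold that had 1 of the 6 largest or 6 smallest log2 folds of a table (with the higher group's mean at 10 or above) or lay within 3 kb of a start; overlapping regions, the highest and lowest levels and up to 3 regions per pathway list were also named. A few further regions were named after their values were seen (Vmn2r13, the remaining regions of Vmn2r99, Vmn2r35 and Vmn2r22). The members and lists were chosen with earlier results of these data known. Alternatives were other pseudocounts, a minimum mean of 10, limma voom on recovered reads, a minimum log2 fold of 1, median centring, autosomes only, members within 10 kb, leaving out each library, and, chosen after seeing the data, leaving out regions below the counting bound or in gene models over 100 kb.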

Additional observations from a re-analysis of the deposited data

Results flagged for a closer look

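For 3 receptor regions that overlap between the lists for 3 and 8 weeks, all 3 Tg197 libraries lay on one side of the WT mean at 3 weeks and all 3 on the other side at 8 weeks. The differences between the ages were not tested, since the tables were normalized separately. Olfr138 had a log2 fold of 1.18 at 3 weeks and -1.42 at 8 weeks, a difference of 2.60; without the third Tg197 library at 3 weeks the first value was 0.83 and did not pass (limma adjusted p = 0.0504). Olfr1166 had -0.26 at 3 weeks and 0.09 at 8 weeks, a difference of -0.35. Vmn2r-ps11 had -0.19 at 3 weeks and 0.51 at 8 weeks, a difference of -0.70. None of the 3 passed the test at 8 weeks.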

How the results depend on the processing

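No paired analysis was possible because the packed values carry no replicate number. Requiring a log2 fold of at least 1 left 6 receptor regions at 3 weeks, 8 at 8 weeks, 1 at 11 weeks and 9 with TNF, against 27, 16, 5 and 27; of all regions it left 3101, 4717, 3514 and 10192, against 11153, 6470, 5694 and 15855. Without regions below the counting bound 14 of 16 receptor regions passed at 3 weeks, beside 7562 of all 8240. At 8 weeks 0 passed with a pseudocount of 0.1 (no region of the whole table did) and 8 of 22 without gene models over 100 kb. Median centring gave 22 receptor regions at 3 weeks (6 higher, 16 lower) and 21 at 8 weeks (11 higher, 10 lower). It gave 8 at 11 weeks and 25 with TNF. Of all regions, 10073, 7432, 5554 and 7524 passed with it. With 1 library left out, 23 to 27 receptor regions passed at 3 weeks, 0 to 24 at 8 weeks, 0 to 8 at 11 weeks and 13 to 25 with TNF. The cause of these shifts was not tested, except that the bound and the gene models remove members by construction. Limits of 0.5 Mb in place of 1 Mb gave 43 clusters in place of 32, and 2 in place of 5 with 5 or more regions. Of 1466 alternative values of single regions, 1195 stayed on the same side of the threshold with the same sign, 238 no longer passed, 31 newly passed and 2 changed sign: the Vmn2r99 region at chr17:19460251-19460750, which did not pass at 3 weeks, had log2 folds of -0.0140 to 0.0805 with 1 library left out, below 0 without the second Tg197 or the third WT library. Replicate numbers in the labels could not be tied to values. With 3 libraries a group or fewer, and 1238 to 2020 receptor reads per library at 11 weeks, regions of few reads are the least certain.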
